A study of Mus musculus with 40 samples.

Results

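Primary tumors grown from 66cl4 cells were compared between mice that received chitin together with anti-PD-1, here called the combination, and mice that received neither. The comparison covered all 14318 genes of the RNA-sequencing table in 10 of the 20 66cl4 tumors, 5 per group, out of 39 tumors with values. 66cl4 is a mouse mammary tumor cell line used as a model of triple-negative breast cancer, and the cells carried luciferase and were injected into the milk ducts of lactating, wild-type female BALB/c mice. Both groups shared this host and this inoculation. The combination group was given repeated intraperitoneal doses of 1 mg of chitin particles and weekly doses of 200 µg of an anti-PD-1 antibody until 5 w p.i. All tumors were taken at 5 w p.i. and sequenced whole. The labels call the other group untreated and name no injected control, so that effects of the agents and of the injections cannot be told apart. Chitin is the sugar polymer of shells and was given because chitinase-like proteins bind it, and anti-PD-1 blocks an inhibitory receptor of T cells. For comparison, 5 66cl4 tumors from mice given chitin alone, 5 from mice given anti-PD-1 alone, and tumors of a second mammary line of the same host, 4T1, with the combination (5 tumors) or untreated (4 tumors), were used. In the paper, a pair of mammary glands of each mouse was inoculated, so that tumors of a group can share a mouse. The labels do not say that the 5 tumors of a group came from separate mice, so that p-values measure the spread between these tumors.

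Several programs that such a treatment could touch are well known. Interferon gamma, made by T cells and natural killer cells, switches on transcription factors such as IRF1, which in turn raise the genes of antigen presentation on MHC class I and, through CIITA, on MHC class II. Dendritic cells that carry XCR1 present antigen to CD8 T cells and make IL-12, which drives interferon gamma production. Poorly perfused tumor areas stabilize hypoxia-inducible factors, which raise glucose uptake, glycolysis and the growth factor VEGF-A. Because whole tumors were sequenced, fewer cells of a type and less RNA per cell cannot be told apart in any of the values below.

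Levels are given as normalized counts, in which each tumor's reads are scaled by its size factor for depth. Differences are combination minus untreated on the deposited log2-like scale of the variance stabilizing transformation (VST units), which compresses the differences of genes with few reads, and each has its standard error (SE) and its p-value from limma adjusted over all genes. In the 10 tumors, 5732583 to 8408913 reads (untreated) and 5802662 to 13084865 reads (combination) fell on the listed genes. The combination tumors were sequenced more deeply (two-sided exact permutation test of the means, p = 0.0476, n = 5 per group). Untreated tumor 3 stood apart from the other untreated tumors, with a weight of 0.54 on the first principal component of the deviations from the group means over the 20 66cl4 tumors, a component that held 30.4% of their variance. The next highest weight among the 10 tumors was 0.31, in combination tumor 5. As a check of the labelled tissue, Krt8, a keratin of luminal epithelium, had 3152 to 4962 normalized counts over the 10 tumors, and Vim, the mesenchymal filament vimentin, 18029 to 27751. The epithelial adhesion molecule Epcam was near 0 in some of them, at 1.12 to 111. The tumors thus held abundant Krt8 and Vim RNA, while Epcam, a defining epithelial marker, was low or nearly absent.

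No single gene passed the adjusted threshold of 0.05 between the combination and the untreated tumors. limma called 0 of 14318 genes (0%), the smallest adjusted p was 0.121, which 5 genes shared, and limma-voom, run on recovered reads, likewise called 0. At an unadjusted p under 0.05, 826 genes (5.77%) were higher and 690 (4.82%) lower in limma, and 711 were higher and 684 lower in limma-voom. In limma at equal read depth, 755 were higher and 655 lower. The counts depended on single untreated tumors. Without untreated tumor 1, 492 genes were higher and 428 lower at an unadjusted p under 0.05. Without untreated tumor 3, limma called 2 genes, and without untreated tumor 4 it called 3. With tumor weights and without untreated tumor 3, an alternative chosen after seeing the data, it called 62. All 5 combination tumors lay above all 5 untreated tumors for 157 genes (1.1%) and below them for 147 (1.03%). These percentages are the background against which the counts of each gene group are set below, and everything said of a group describes values that were not called gene by gene. The groups were chosen with earlier results of these data known. An excess over the background therefore describes a group and is not a test of it.

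**Figure D1:**
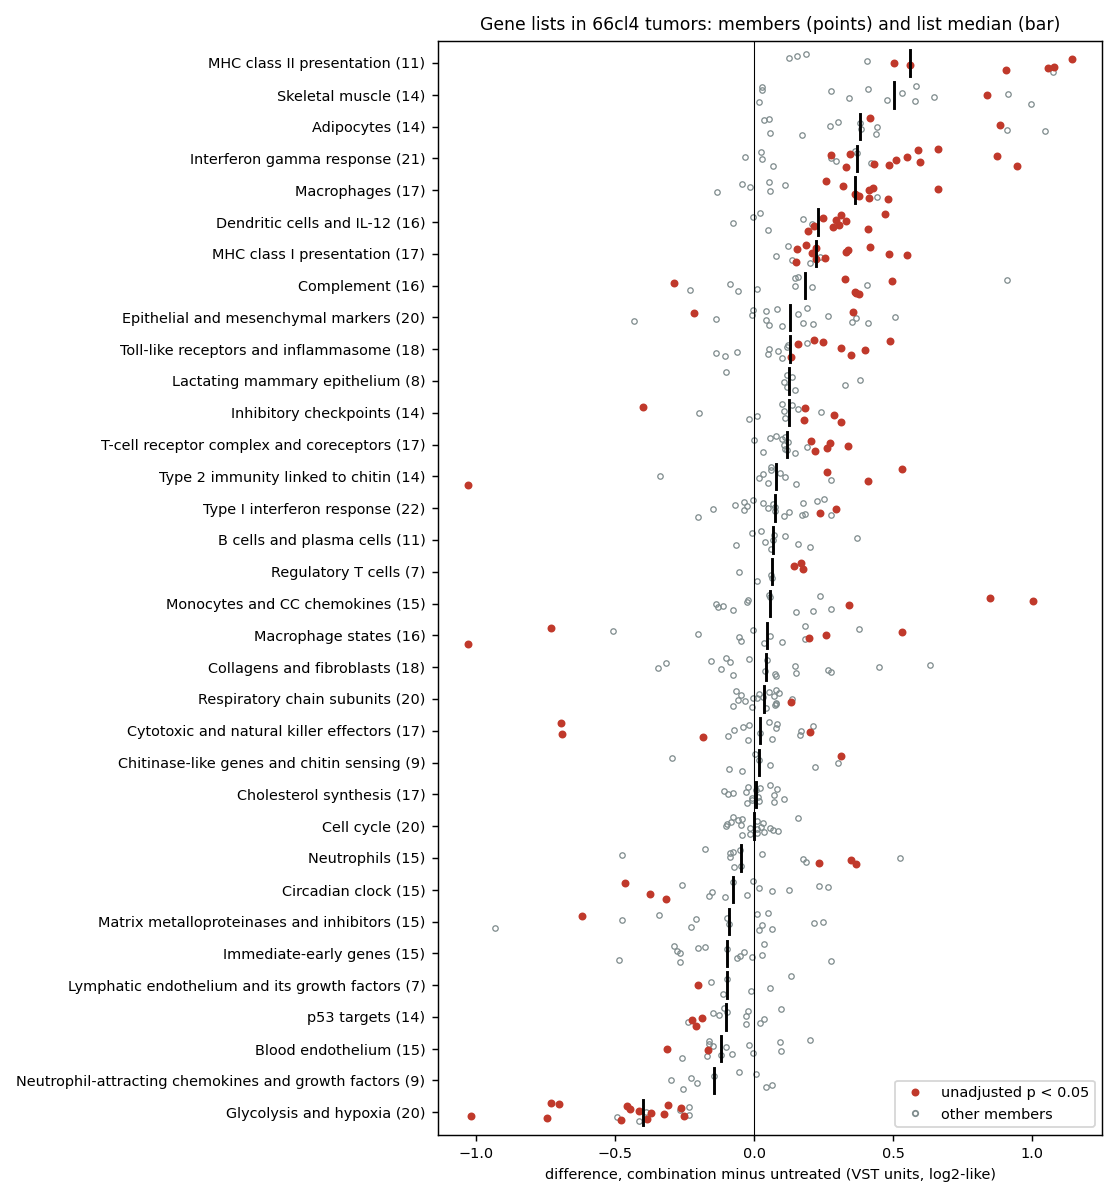
Differences between combination and untreated 66cl4 tumors (horizontal axis, VST units) for the members of each gene list other than lymph node stroma (rows, number of measured members in brackets), with members at an unadjusted p under 0.05 filled and the list median as a bar. The list of glycolysis and hypoxia genes lies wholly below 0, with a median of -0.40, and that of MHC class II presentation wholly above it, with 0.56.

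Genes of glycolysis and of the response to hypoxia were lower in the combination tumors without exception. This held for all 20 genes of the list, 14 of them at an unadjusted p under 0.05 against a background of 4.82%, and 0 were higher at that level. The median difference was -0.40, where the median of all genes was 0.0021. The mean over the list was 10.37 to 10.69 in the combination tumors and 10.69 to 11.19 in the untreated ones, so that the groups touched but did not overlap, with combination tumor 1 next to untreated tumor 4. It was highest in untreated tumors 1 and 5. Leaving out untreated tumor 1 or 5 left 9 and 8 of the 20 genes at an unadjusted p under 0.05, and leaving out combination tumor 1 gave 18.

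Egln3 (Entrez gene 112407, chromosome 12 of mm10, 54178981 to 54203874), which encodes the oxygen sensor PHD3 and is itself a target of hypoxia-inducible factors, stood at the head of the list. It had 431, 202, 157, 281 and 246 normalized counts in untreated tumors 1 to 5 and 91.6, 55.4, 59.2, 141 and 47.7 in combination tumors 1 to 5. The groups did not overlap, the mean was 3.33-fold higher without treatment, and the difference was -1.02 (SE 0.23, adjusted p = 0.197). Bnip3, which targets mitochondria for removal under hypoxia, had 1083, 586, 703, 516 and 912 untreated and 563, 349, 304, 427 and 348 with the combination. Only combination tumor 1 reached into the untreated range, at 563 against a lowest untreated value of 516 (difference -0.75, SE 0.25, adjusted p = 0.328). Vegfa, the main growth factor of blood vessels, had 504, 291, 640.1, 340.0 and 549.9 in the untreated tumors and 313, 144, 241, 185 and 278 in the combination tumors. Here too tumor 1 was the one that overlapped, and the means, 465 ± 146 and 232 ± 68.1 (SD, n = 5), differed 2.003-fold.

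The genes of glucose uptake and breakdown had smaller differences in the same direction. Slc2a1, the glucose transporter GLUT1, had 1895, 1238, 1129, 996 and 1715 untreated and 1049, 766, 635, 785 and 736 with the combination, where tumor 1 was once more the one inside the untreated range (difference -0.70, SE 0.21, adjusted p = 0.298). Hk2, the hexokinase that traps glucose in the cell, had 758, 653, 679, 608 and 630.0 and 576, 508, 464, 519 and 472 and did not overlap between the groups (-0.32, SE 0.10, adjusted p = 0.328). Among all 20 genes, Hk2 and Egln3 were the ones without overlap. Further along the pathway, the differences were -0.45 for Pfkl and -0.26 for Pfkp, subunits of phosphofructokinase, -0.48 for the aldolase Aldoa, -0.46 for Pgk1, -0.25 for Eno1, -0.31 for the pyruvate kinase Pkm and -0.37 for Ldha, which makes lactate. Their adjusted p-values ran from 0.328 (Aldoa) to 0.461 (Pkm). Aldoa, for example, was at 12387 ± 2007 normalized counts without treatment and 8774 ± 821 with it (SD, n = 5). The hypoxia target Ankrd37 (-0.39, adjusted p = 0.396) and the collagen prolyl hydroxylase P4ha1 (-0.41, adjusted p = 0.360) completed the 14. The 6 others were Gapdh, Pgam1, Pdk1, Adm, Ndrg1 and Car9, and their differences ran from -0.49 for the carbonic anhydrase Car9 to -0.23 for Gapdh.

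**Figure D2:**
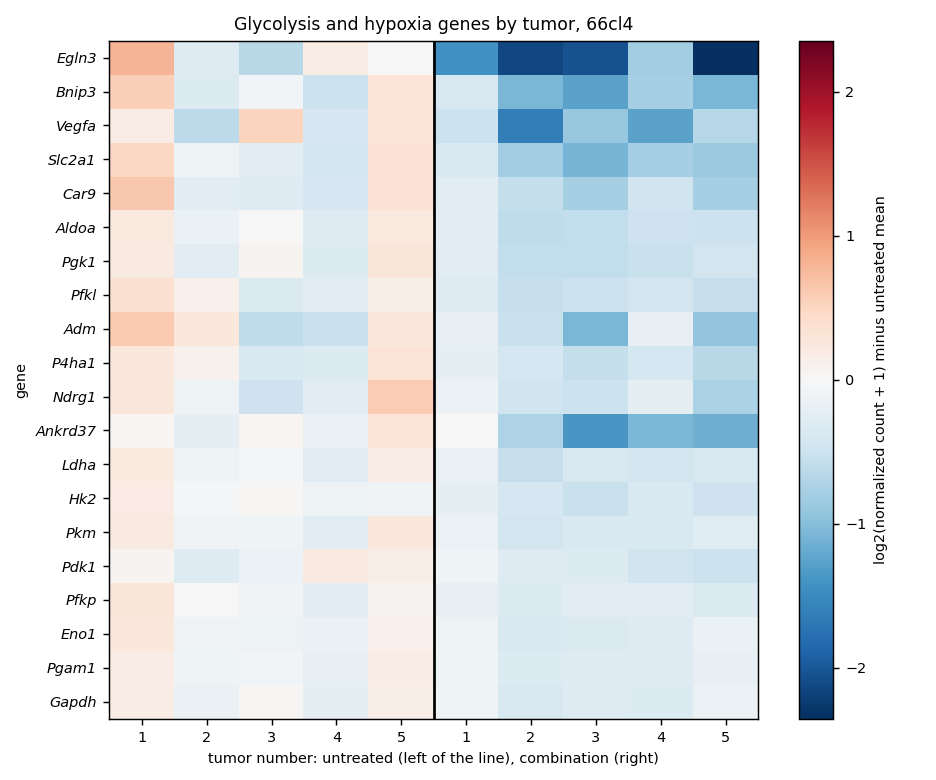
Values of the 20 glycolysis and hypoxia genes (rows) in each of the 10 tumors (columns), as log2(normalized count + 1) minus the mean of the untreated tumors (color). All 20 genes lie below the mean of the untreated tumors in each of the 5 combination tumors, least so in combination tumor 1, and untreated tumors 1 and 5 are the highest.

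Hypoxia-inducible factors bind DNA at the core letters ACGTG, so the 250 bases before the start site of each gene were searched for them on both strands. RefSeq (GRCm38.p6) windows were at hand for 19 of the 20 genes, of which 13 (68.4%) held ACGTG in at least 1 window, against 24.4% of the 11334 tested genes with a window. The letters overlap the E-box CACGTG, which other factors bind, so that a match describes the letters only. The list was made of genes of glycolysis and of the hypoxia response. Its share can come from that choice and says nothing of these tumors. The windows of Egln3 (chr12:54203875-54204124, minus strand), Bnip3 (chr7:138909507-138909756, minus strand) and Ldha (chr7:46845554-46845803, plus strand) are shown 5′ to 3′ because these genes span the sensor, the stress response and the lactate step, with matches in capitals.
Egln3: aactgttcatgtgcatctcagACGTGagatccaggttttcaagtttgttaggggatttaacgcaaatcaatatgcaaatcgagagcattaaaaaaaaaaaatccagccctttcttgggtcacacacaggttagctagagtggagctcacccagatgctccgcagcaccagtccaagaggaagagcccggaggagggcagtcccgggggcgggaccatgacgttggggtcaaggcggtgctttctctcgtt
Bnip3: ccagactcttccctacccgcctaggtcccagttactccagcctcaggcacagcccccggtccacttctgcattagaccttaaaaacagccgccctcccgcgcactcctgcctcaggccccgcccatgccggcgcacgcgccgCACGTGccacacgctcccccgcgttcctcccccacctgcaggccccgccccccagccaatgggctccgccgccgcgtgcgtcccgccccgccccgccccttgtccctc
Ldha: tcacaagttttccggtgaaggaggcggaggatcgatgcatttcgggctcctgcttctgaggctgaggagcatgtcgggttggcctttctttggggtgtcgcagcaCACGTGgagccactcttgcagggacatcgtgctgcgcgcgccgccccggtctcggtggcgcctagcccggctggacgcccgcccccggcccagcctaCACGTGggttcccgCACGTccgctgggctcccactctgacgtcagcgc

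On the other side, genes of antigen presentation were higher, but not in all combination tumors. Of 17 MHC class I presentation genes, all were higher and 12 had an unadjusted p under 0.05 (background 5.77%), with a median difference of 0.22. Of 21 interferon gamma response genes, 20 were higher and 12 had an unadjusted p under 0.05, with a median of 0.37, and in limma-voom the number at that level was 5. All 11 MHC class II presentation genes were higher and 6 had an unadjusted p under 0.05, with a median of 0.56. For 0 of the members of these 3 lists did all combination tumors lie above all untreated tumors.

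Combination tumors 2 and 4 held the high values. The mean over the interferon gamma list was 8.96 and 8.94 in them, 7.98 to 8.21 in the other 3 combination tumors and 7.86 to 8.33 in the untreated ones. Cxcl9 (Entrez gene 17329, chromosome 5 of mm10, 92321331 to 92328079), a chemokine that draws in T cells, had 46.3, 64.2, 49.2, 135 and 57.4 normalized counts in the untreated tumors and 117, 580.1, 75.8, 541 and 99.3 in the combination tumors. Tumors 2 and 4 lay above all untreated tumors and the other 3 within their range, and the difference was 0.94 (SE 0.37, adjusted p = 0.375). The same held for Irf1, a transcription factor induced by interferon gamma, which had 685, 702, 768, 850.1 and 729 and 770.4, 1201, 813, 1130 and 798 (0.28, SE 0.11, adjusted p = 0.377). Iigp1, a GTPase against intracellular pathogens, was at 265, 1078, 150.2, 1035 and 204 in the combination tumors, where again tumors 2 and 4 alone exceeded the untreated range of 136 to 309 (0.87). Gbp2 and Igtp, GTPases of the same kind, also exceeded it in tumor 1, with differences of 0.48 (adjusted p = 0.340) and 0.55 (adjusted p = 0.443). Tgtp1 (0.59) and Tgtp2 (0.66) are near-identical, so that the counting could divide their reads between the copies. Without combination tumor 2 the interferon gamma list had 2 genes left at an unadjusted p under 0.05 and a median of 0.25. Without combination tumor 4 it had 3 such genes and a median of 0.24, and without untreated tumor 1 or 2 it had 6 such genes. The type I interferon list, with targets shared in part with interferon gamma, had 2 of 22 genes higher at an unadjusted p under 0.05, Mx1 (0.29) and Ifit2 (0.24), and a median of 0.073. It had 0 genes at that level without combination tumor 2, 1 without combination tumor 4 or untreated tumor 1, 2 or 5, and 4 without combination tumor 3 or untreated tumor 3.

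Transcription factors of the IRF family bind DNA at repeats of GAAA. A pair of GAAA copies with any 2 bases between them was found in the 250 bases before the start of 11 of the 13 interferon gamma genes with a RefSeq window (84.6%), against 3.32% of the tested genes. It was found in 2 of the 15 MHC class I genes with a window (13.3%) and in 0 of the 8 MHC class II genes. Both strands were searched, and a match says nothing of binding. The interferon gamma list was made of known response genes, several of them related GTPases. Its share can come from that choice and says nothing of these tumors. Shown 5′ to 3′ with matches in capitals are the windows of Gbp5 (chr3:142496684-142496933, plus strand) and Igtp (chr11:58199306-58199555, plus strand), a pair of GTPase effectors of the list.
Gbp5: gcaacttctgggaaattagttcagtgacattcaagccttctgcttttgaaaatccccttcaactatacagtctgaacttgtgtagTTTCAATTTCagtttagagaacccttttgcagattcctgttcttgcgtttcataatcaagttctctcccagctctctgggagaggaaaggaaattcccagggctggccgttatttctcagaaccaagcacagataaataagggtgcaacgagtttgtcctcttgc
Igtp: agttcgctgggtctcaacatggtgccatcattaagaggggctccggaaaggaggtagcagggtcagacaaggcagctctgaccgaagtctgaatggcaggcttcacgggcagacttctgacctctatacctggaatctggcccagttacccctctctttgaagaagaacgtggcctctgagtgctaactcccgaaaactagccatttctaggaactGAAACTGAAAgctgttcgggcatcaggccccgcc

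The 4 largest positive differences of the whole table, among genes of at least 50 normalized counts and at an unadjusted p under 0.05, were MHC class II genes. H2-Ab1 (Entrez gene 14961, chromosome 17 of mm10, 34263227 to 34269418), a chain of the class II molecule I-A, had 314, 841, 305, 1042 and 717 normalized counts untreated and 789.8, 3033, 865, 2874 and 736 with the combination, a difference of 1.08 (SE 0.48, adjusted p = 0.446). Tumors 2 and 4 lay far above the highest untreated tumor and tumors 1, 3 and 5 lay inside the untreated range. H2-Aa, H2-Eb1 and Ciita, the switch of all class II genes, had the same pattern, with differences of 1.06, 1.14 and 0.91. Cd74, the invariant chain, was at 2045, 4995, 1525, 6297 and 4000 untreated and 4535, 16385, 4597, 14357 and 3708 with the combination and differed by 1.07 (adjusted p = 0.493). H2-Ea, at 1.16, is a transcribed pseudogene in the C57BL/6J annotation, and class I and II genes differ in sequence between that strain and BALB/c, so that their reads may align less completely in both groups. Untreated tumors 1 and 3 had the lowest class II values. The number of class II genes at an unadjusted p under 0.05 was 1 without combination tumor 2, 2 without combination tumor 4, untreated tumor 1 or untreated tumor 3, and 9 without combination tumor 5. Markers of lymphoid tissue were high in the same pair of tumors. The mean over 11 measured B-cell and plasma-cell genes was 6.86 and 6.82 in combination tumors 2 and 4, 6.62 to 6.68 in the other combination tumors and 6.49 to 6.69 in the untreated ones, and their summed normalized counts were 128 to 213 without treatment and 164 to 295 with it. The lymph node stroma list had 2 measured genes, Cxcl13 and the lymphocyte gene Ltb. Their mean was also highest in combination tumors 2 and 4, at 8.37 and 8.07. Combination tumor 3, at 7.98, lay just above the untreated range of 7.11 to 7.97 as well. The other members, Ccl19, Ccl21a, Glycam1, Madcam1, Fcer2a and Cr2, were not among the measured genes. The part of lymphoid tissue in the class II and interferon values was not tested.

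In the class I pathway the differences were smaller. Nlrc5, the class I counterpart of Ciita, had 51.3, 84.8, 68.6, 139 and 74.7 and 115, 269.7, 109.5, 206 and 94.8 (0.48, SE 0.17, adjusted p = 0.340), with tumors 2 and 4 above all untreated tumors. Tap1, which carries peptides into the endoplasmic reticulum, differed by 0.42, the immunoproteasome subunit Psmb9 by 0.34, its activator Psme2 by 0.22, the classical class I gene H2-K1 by 0.22 and the non-classical H2-T23 by 0.55. For B2m, the light chain of all class I molecules, combination tumors 1, 2 and 4 lay above all untreated tumors, and the difference was 0.20 (SE 0.10, adjusted p = 0.473). Without combination tumor 2, and likewise without combination tumor 4, 4 of the 17 genes had an unadjusted p under 0.05, and without untreated tumor 1 or 2 it was 5 or 7.

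**Figure D3:**
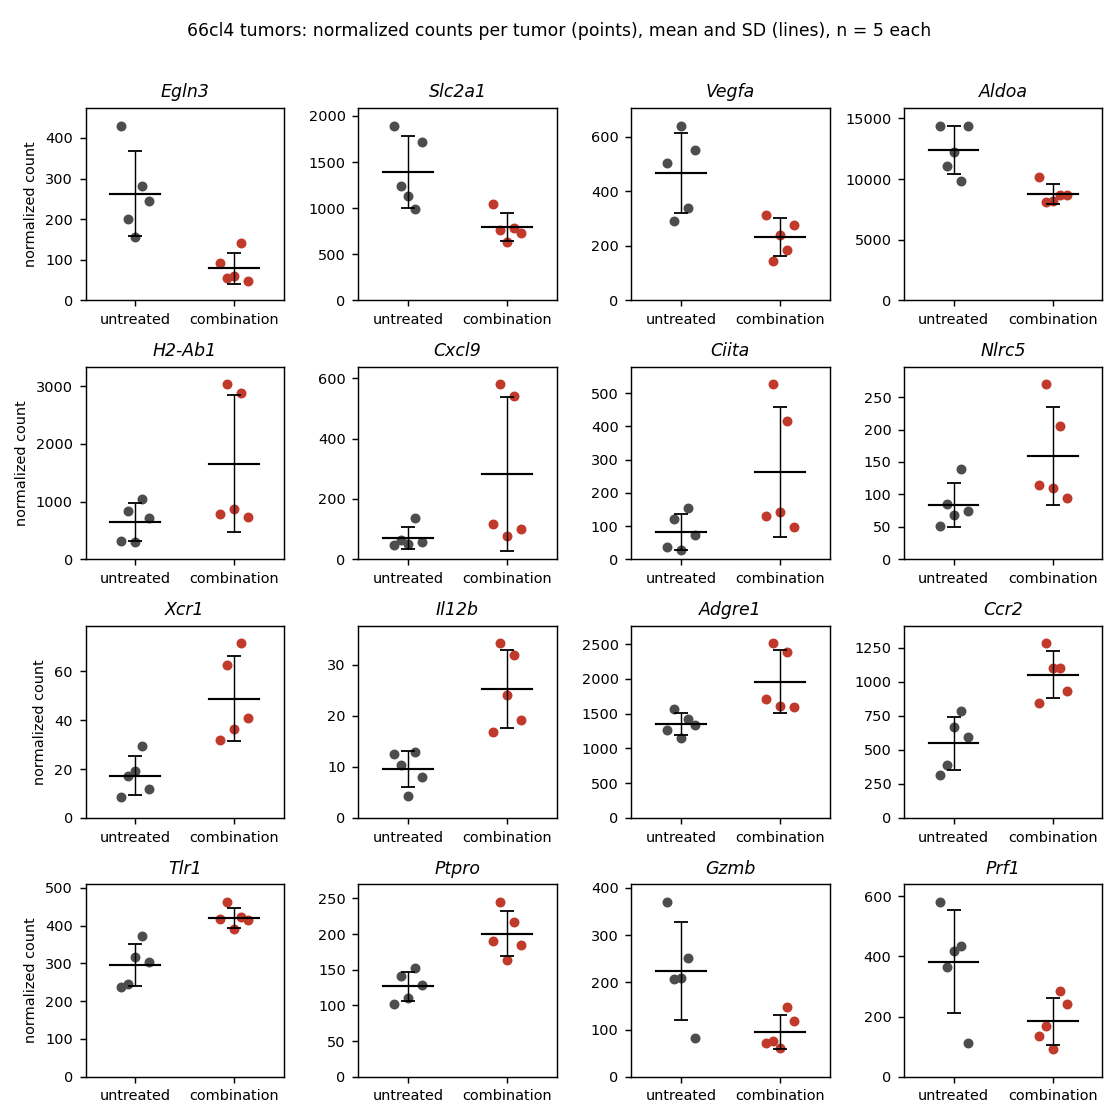
Normalized counts of 16 genes (vertical axes, linear from 0) in each untreated and combination 66cl4 tumor, drawn from tumor 1 at the left to tumor 5 at the right of each group, with mean and SD. Egln3, Xcr1, Il12b, Adgre1, Ccr2, Tlr1 and Ptpro do not overlap between the groups, whereas for H2-Ab1, Cxcl9, Ciita and Nlrc5 combination tumors 2 and 4 alone lie above the untreated tumors.

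Genes of dendritic cells were higher in the combination tumors, several of them in all 5. Of 16 measured genes, 14 were higher, 10 at an unadjusted p under 0.05, and 5 did not overlap between the groups, where the background was 5.77% and 1.1% of genes. Xcr1 (Entrez gene 23832, chromosome 9 of mm10, 123852315 to 123862029), the chemokine receptor of cross-presenting dendritic cells, had 8.76, 17.2, 19.3, 29.6 and 12.01 normalized counts in the untreated tumors and 31.9, 62.7, 36.5, 71.6 and 40.96 in the combination tumors. No tumors overlapped, the mean was 2.80-fold higher, and the difference was 0.47 (SE 0.10, adjusted p = 0.180), or 0.42 at equal read depth. Il12b, the p40 subunit of IL-12, had 12.5, 10.3, 4.40, 12.9 and 8.01 and 16.8, 34.2, 24.1, 31.96 and 19.1, also without overlap (0.33, adjusted p = 0.298). Ccl22, a chemokine of mature dendritic cells that attracts regulatory T cells, was at 27.3 ± 3.66 without treatment and 60.1 ± 15.4 with it (SD, n = 5, 0.41, adjusted p = 0.226). Irf4 (0.29) and Itgae (0.25), a transcription factor and the integrin CD103 of dendritic cell subsets, were the other members without overlap, and both are also made by T cells. Clec9a, the receptor for dead cells on the XCR1 subset, had 10.01, 21.8, 19.3, 28.3 and 10.7 and 26.05, 43.2, 35.1, 38.3 and 36.5, with only combination tumor 1 inside the untreated range. Batf3, which that subset requires, differed by 0.19, the homing receptor Ccr7 by 0.28, and Siglech of plasmacytoid dendritic cells by 0.31, from 0 to 15.5 normalized counts. At such low counts the scale understates a fold change. Cd209a, a receptor of monocyte-derived dendritic cells, was the last of the 10, with 0.21. Fscn1 (-0.077) and Itgax, the integrin CD11c, were the 2 lower members. Leaving out single tumors left 8 to 11 of the genes at an unadjusted p under 0.05. The counts rest on genes of few reads: with the 25% of genes with the lowest means left out, 3 of the 16 members remained, 0 of them at an unadjusted p under 0.05, and the median was -0.0046.

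Macrophage genes were likewise higher, at higher counts. Of 17 genes, 14 were higher and 10 had an unadjusted p under 0.05, with a median of 0.36. Adgre1 (Entrez gene 13733, chromosome 17 of mm10, 57358581 to 57483529), which encodes the macrophage marker F4/80, had 1265, 1568, 1154, 1417 and 1337 and 1711, 2514, 1605, 2382 and 1593 normalized counts. It was the one gene of the list without overlap (0.48, SE 0.12, adjusted p = 0.214), and tumors 2 and 4 were again the highest. C1qa, the start of the classical complement pathway and abundant in tumor macrophages, had 5698, 8698, 8785, 9293 and 8876 and 10588, 12679, 9204, 11256 and 9718 (0.38, SE 0.13, adjusted p = 0.330). Cx3cr1, the fractalkine receptor, differed by 0.66, the Fc receptor Fcgr1 by 0.43, and Aif1 by 0.41 (adjusted p = 0.315, 0.328 and 0.298). Untreated tumor 1 had the lowest mean over the list, 10.71 against 11.07 or more in the other untreated tumors, and without it 6 genes were left at an unadjusted p under 0.05 and the median was 0.23. Maf, a transcription factor of macrophages and T cells that is no list member and was named for its p-value, had 1652, 2177, 2072, 2076 and 1882 and 2510, 2720, 2765, 2800 and 2574, with no overlap (0.42, SE 0.093, adjusted p = 0.190).

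Among monocyte genes and CC chemokines, 3 of 15 were higher at an unadjusted p under 0.05. Ccr2, the receptor that brings monocytes into tissue, had 318, 386, 668, 783 and 594 untreated and 842, 1285, 1102, 1102 and 932 with the combination. All 5 combination tumors were above all untreated ones, and the difference was 0.85 (SE 0.29, adjusted p = 0.332). Ccl8, a ligand of monocyte receptors, had 468, 869, 339, 369.7 and 269.6 and 481, 2233, 669.6, 2084 and 549, where tumors 2 and 4 alone exceeded the untreated range (1.003, adjusted p = 0.377). Ccl5, a chemokine of activated T cells and macrophages, differed by 0.34. Without combination tumor 2 or 4, 1 of the 15 genes was left at an unadjusted p under 0.05, and without untreated tumor 3 it was 6. Of the genes that mark macrophage states, Arg1, the arginase tied to immunosuppression, had 1502, 1271, 3317, 1351 and 3382 untreated and 1727, 680.3, 646, 860.3 and 882 with the combination (difference -1.03, SE 0.42, adjusted p = 0.396). Combination tumors 2 to 5 lay below all untreated tumors, and Arg1 and Vegfa were the lower members of a list in which Mrc1, Folr2 and Retnla were the higher ones at an unadjusted p under 0.05. Without combination tumor 2 or 4 or without untreated tumor 1 or 5, 0 higher members were left at that level, and at equal read depth it was 1. The 2 lower members became 1 without combination tumor 2 or 3 or untreated tumor 5, and 4 without combination tumor 4. Retnla, which IL-4 and IL-13 induce, had 16.3, 33.2, 34.3, 30.9 and 0 and 11.8, 83.1, 97.8, 84.4 and 33.1 (0.53, adjusted p = 0.472).

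Toll-like receptor and inflammasome genes were mostly higher. Of 18, 15 were higher, 8 at an unadjusted p under 0.05 and 3 without overlap. Tlr1, the partner of TLR2 in sensing bacterial lipopeptides, had 238, 244, 316, 372 and 303 and 418, 463, 389.9, 422 and 414 (0.40, SE 0.080, adjusted p = 0.169). Tnf did not overlap either, with 23.8, 22.9, 23.7, 20.6 and 13.3 and 35.3, 26.1, 34.4, 34.5 and 39.8 (0.22, adjusted p = 0.314), nor did Tlr4, the receptor for bacterial lipopolysaccharide (0.12, adjusted p = 0.553). Tlr2, which also senses chitin, had 235, 328, 412, 325 and 352 and 469, 510.0, 371, 391 and 435, with combination tumors 1, 2 and 5 above all untreated tumors (0.31, adjusted p = 0.328). Tlr9, the receptor for bacterial DNA, differed by 0.49, and Il1b by 0.35. Without untreated tumor 3, 4 of the 18 genes were left at an unadjusted p under 0.05, and it was 5 without combination tumor 2 or 4 and also at equal read depth. Among 16 complement genes, 5 were higher, the 3 C1q chains and Cfb (0.49) among them, and the inhibitor Cd55 was lower (-0.29), all at an unadjusted p under 0.05, and without untreated tumor 1 it was 3 higher genes. Cd55 was at that level in neither equal read depth nor the fits without combination tumor 1 or 3 or untreated tumor 1, 3 or 4.

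T-cell genes were low in these tumors and mostly higher in the combination group. Of 17 genes of the T-cell receptor complex and its coreceptors, 16 were higher and 5 had an unadjusted p under 0.05, and 0 were without overlap. Cd3e had 12.5, 12.6, 5.28, 21.9 and 22.7 normalized counts untreated and 20.2, 49.7, 22.05, 35.8 and 18.5 with the combination (0.26, SE 0.095, adjusted p = 0.351). Tumors 2 and 4 were again the only ones above the untreated range, and Cd4 (0.34) and Cd6 (0.27) had the same order. Cd8b1, the second chain of the CD8 coreceptor, had 2.50, 8.02, 3.52, 9.02 and 6.67 and 10.1, 17.9, 10.3, 21.7 and 6.17 (0.20, adjusted p = 0.443), and Cd27, a costimulatory receptor, was the last of the 5 (0.22). The number of genes at an unadjusted p under 0.05 was 0 without combination tumor 2, 2 without combination tumor 4, 3 without untreated tumor 3 and 8 without combination tumor 5. Of 7 regulatory T-cell genes, the IL-2 receptor chain Il2ra (0.18) and the costimulatory receptors Tnfrsf4 (0.17) and Tnfrsf18 (0.14) were higher at an unadjusted p under 0.05, and 1 was without combination tumor 2 or 3 or without untreated tumor 2 or 3. Of the 8 genes on the lymph node stroma list, 2 were in the table. The lymphotoxin gene Ltb (0.30), a gene of lymphocytes rather than stroma, had an unadjusted p under 0.05, and Cxcl13 was not at that level. B-cell genes had 0 of 11 at that level and a median of 0.068.

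Genes of cytotoxic effectors did not follow the T-cell genes. Of 17, 9 were higher and 8 lower, and at an unadjusted p under 0.05 only Ifng was higher and Gzmb, Prf1 and Eomes were lower. Ifng, at 0 or 1 read per untreated tumor and 0 to 5 reads per combination tumor, is too low for a fold change, and without combination tumor 4 its unadjusted p was above 0.05. Without combination tumor 3 or untreated tumor 1, 1 gene was lower at that level. Gzmb, granzyme B, had 370.5, 207, 209, 251 and 81.4 and 71.4, 76.6, 61.3, 147 and 119 (-0.69, SE 0.20, adjusted p = 0.298). Prf1, which encodes the pore-forming perforin, had 581, 366, 416, 434 and 112 and 135, 167, 90.9, 285 and 242 (-0.69, SE 0.28, adjusted p = 0.383). For both genes, untreated tumor 5 lay among the combination tumors, and the other 4 untreated tumors lay above all of them. The neighbouring granzymes Gzmd (-0.995), Gzmf (-1.06) and Gzmg (-1.09) were among the 10 genes with the largest negative difference, and Gzmc (-0.86) and Gzme (-0.79), chosen after their values were seen, had like differences. Gzmd had 1169, 799, 958, 1256 and 226 and 269, 279, 129, 649 and 547 (adjusted p = 0.421). These genes are close copies of each other on chromosome 14, so that reads may be divided between them. Among inhibitory checkpoints, Tigit, a receptor on exhausted T cells and natural killer cells, was lower (-0.40, adjusted p = 0.328) and Entpd1, the ectoenzyme CD39, higher without overlap (0.29, adjusted p = 0.298). Btla (0.31), Pdcd1lg2 (0.18) and Cd160 (0.18) were the other members at an unadjusted p under 0.05, at no more than 36.5 normalized counts in any tumor, and at equal read depth 2 checkpoints were higher at that level.

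Neutrophil genes and the genes that bind or sense chitin differed in both directions. Of 15 neutrophil genes, Cxcr2 (0.23), Csf3r (0.37) and Il1b were higher at an unadjusted p under 0.05, and the list median was -0.047. Without combination tumor 3, 1 gene was left at that level. The chemokines and growth factors that attract these cells had 0 of 9 at that level, with Cxcl2 at 72.6, 26.4, 56.3, 42.5 and 69.4 and 47.05, 14.7, 26.2, 20.5 and 43.2 (-0.30, adjusted p = 0.601). Among chitinase-like genes and chitin sensors, 9 of 15 were in the table and Tlr2 alone had an unadjusted p under 0.05, and without untreated tumor 4 it was 2 genes. Chil3, the chitinase-like protein of mouse myeloid cells, was at 0 to 3.52 normalized counts over the 10 tumors, which allows no comparison of this gene. Chil1, which encodes CHI3L1, could be compared and was not at an unadjusted p under 0.05 (adjusted p = 0.809). Of 14 genes of type 2 immunity, the response that chitin can evoke, Ccl22, Retnla and the IL-4 receptor chain Il4ra (0.26) were higher and Arg1 lower at an unadjusted p under 0.05. The higher genes numbered 1 without combination tumor 2 or untreated tumor 1 and 5 without untreated tumor 3, and Arg1 was not at that level without combination tumor 2 or 3 or untreated tumor 3 or 5.

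**Figure D4:**
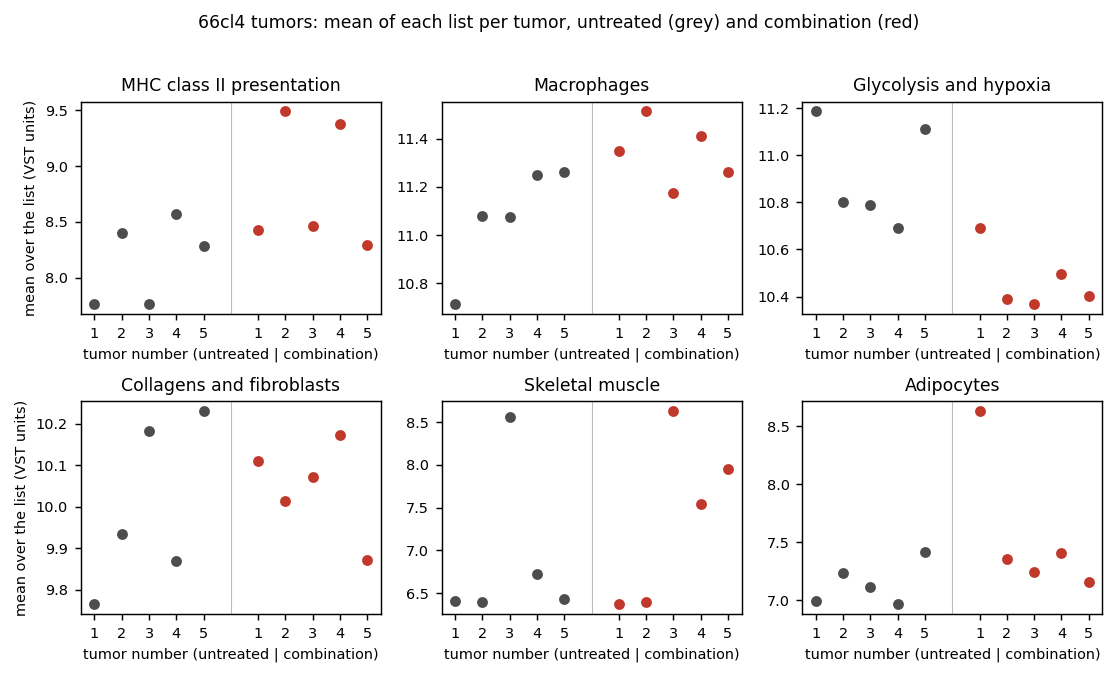
Mean over 6 gene lists (vertical axes, VST units, not starting at 0) in each of the 10 tumors, numbered along the horizontal axis. MHC class II is high in combination tumors 2 and 4, skeletal muscle in untreated tumor 3 and combination tumors 3 to 5, and adipocyte genes in combination tumor 1, while glycolysis genes are lower in all combination tumors.

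The genes with the smallest p-values were mostly outside these lists. Besides Tlr1, Xcr1 and Maf, the 10 with the smallest p among the higher genes were Ptpro, Amdhd2, Tmem123, Oxct1, Zeb2os, Cmtm6 and Fabp5, all without overlap, with differences from 0.25 to 0.40 and adjusted p-values from 0.121 to 0.197. Ptpro, a receptor-type tyrosine phosphatase, had 103, 141, 109.9, 152 and 128 and 189.9, 245, 164, 217 and 185 normalized counts (SE 0.073). Cmtm6, which keeps PD-L1 at the cell surface, had 728, 818, 874, 871 and 846 and 1007, 1104, 1029, 1087 and 888 (0.27, SE 0.063). The fatty acid-binding protein Fabp5 had 288, 303, 384, 377 and 340.3 and 438, 491, 447, 446 and 462, and Oxct1, which lets cells burn ketone bodies, differed by 0.26. Among the lower genes, the smallest p-values belonged to Mafg, Bcar3, Lamb1 and Itgb3, which shared the adjusted p of 0.121 with Ptpro, and then to Tnfrsf23, Myo18a, Ermp1, Aars, Mthfd1l and Egln3. Lamb1, a laminin chain of basement membranes, had 3268, 2674, 2602, 2765 and 2786 and 2210, 2014, 2220, 2373 and 2123 (-0.34, SE 0.066). Itgb3, the beta 3 integrin, had 150.2, 101, 124, 104 and 140.1 and 84.02, 63.6, 56.5, 71.6 and 77.99 (-0.41, SE 0.079). Aars, alanyl-tRNA synthetase, and Mthfd1l, of mitochondrial folate metabolism, had differences of -0.27 and -0.41. Of the 39 genes with the smallest p or the largest difference in either direction, 21 did not overlap between the groups.

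Besides genes already named, the 10 largest negative differences included Col6a5, Hspa1b, Hspa1a, Igfbp3 and Adam8. Col6a5, a collagen VI chain, had 1518, 813, 43.96, 447 and 538 and 12.6, 156, 94.4, 280.0 and 267, which overlapped, with untreated tumor 3 below 4 of the combination tumors (-1.32, SE 0.51, adjusted p = 0.377). Hspa1b and its near-identical copy Hspa1a, which encode the inducible heat-shock protein HSP70, differed by -1.29 and -1.13. For Hspa1b the untreated tumors ranged from 294 to 2218 and the combination tumors from 231 to 477 (adjusted p = 0.328). Igfbp3, a carrier of insulin-like growth factors, had 1404, 754, 827, 711 and 1731 and 812, 239, 328, 340.0 and 642 (-1.04, adjusted p = 0.328), and the metalloproteinase Adam8 1680, 1069, 1387, 770.2 and 2643 and 1078, 486, 535, 655 and 818 (-0.90, adjusted p = 0.340).

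Other programs of tumor cells and stroma had few or no genes at an unadjusted p under 0.05. Cell cycle genes had 0 of 20 members at an unadjusted p under 0.05 and a median of -0.0023, cholesterol synthesis 0 of 17 and 0.0061, collagens and fibroblast markers 0 of 18 and 0.042, and respiratory chain subunits 1 of 20 and 0.036. Without untreated tumor 3, 5 respiratory chain genes were at that level, and without combination tumor 2, 3 or 5 or untreated tumor 1 or 2 it was 0. Immediate-early genes, which react within minutes to stress, had 0 of 15 and a median of -0.10. Of 14 genes of the p53 pathway, 3 were lower at an unadjusted p under 0.05. They were the death gene Bax (-0.21), the cell cycle inhibitor Cdkn2a (-0.22) and the stress cytokine Gdf15 (-0.19). In the fits without combination tumor 2, 3 or 5 or untreated tumor 5, 1 gene was lower at that level. Of the epithelial and mesenchymal markers, the transcription factor Snai2 was higher in all 5 tumors, at 68.8, 66.5, 80.9, 78.6 and 50.7 against 115, 125, 121, 84.4 and 119 (0.35, adjusted p = 0.214), and its relative Snai1 lower (-0.22, adjusted p = 0.413). Without combination tumor 5, 4 markers of this list were higher at an unadjusted p under 0.05, without combination tumor 3 or untreated tumor 3, 4 or 5 it was 2, and 0 were lower without combination tumor 3 or untreated tumor 2 or 5 and 2 without untreated tumor 3. Among 15 clock genes, the repressors Cry1 (-0.37, no overlap, adjusted p = 0.214), Per2 (-0.47) and Bhlhe41 (-0.32) were lower at an unadjusted p under 0.05, 5 genes were without untreated tumor 3, and the time of day of tumor collection is not given in the sources used here. Of the blood endothelium list, 12 of 15 genes were lower and the VEGF receptor Flt1 (-0.31) and Esam (-0.17) had an unadjusted p under 0.05, with a list median of -0.12. The number at that level was 0 without untreated tumor 1, 1 without combination tumor 2, 3 or 4 or untreated tumor 5, and 4 without untreated tumor 4. Of 7 lymphatic genes, the VEGF-C receptor Nrp2 (-0.20) was the one at that level, and it was 0 without combination tumor 2 or untreated tumor 1 or 2 and 2 without combination tumor 5.

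Markers of neighbouring tissue differed as well. All 14 skeletal muscle genes were higher in the combination group, with a median of 0.50 and Myh2 at an unadjusted p under 0.05, and their summed normalized counts were 148 to 4816 in untreated and 130.2 to 5223 in combination tumors. They were high in combination tumors 3, 4 and 5 and in untreated tumor 3, so that without the latter the median was 0.92 and 11 genes had an unadjusted p under 0.05. Without combination tumor 1 or 2 it was 3 genes, and without any other tumor of the 10 it was 0, as in limma-voom. Without combination tumor 3 the median was 0.21. All 14 adipocyte genes were higher as well, Lpl and Retn, which encodes resistin, at an unadjusted p under 0.05, with a median of 0.38, which was 0.065 without combination tumor 1. The number at that level was 0 in limma-voom and without combination tumor 1 or untreated tumor 1 or 4, and 1 without untreated tumor 3 or 5. Lpl, the lipoprotein lipase of fat and macrophages and 1 of the 10 largest positive differences, had 15.02, 58.5, 53.6, 21.9 and 57.4 and 649, 102, 95.8, 86.9 and 59.5 (0.88, adjusted p = 0.401), and without combination tumor 1 its difference was 0.48. The summed counts of 8 genes of the lactating gland were 986 to 1303 and 893 to 1633, with combination tumor 1 alone above the untreated range. Ribosomal RNA precursor (Rn45s), chosen after its values were seen, had 23794, 16024, 16263, 17740 and 19876 untreated and 11811, 12749, 7886, 11773 and 9705 with the combination and did not overlap (-0.79, adjusted p = 0.298). In combination tumors 2 and 4, the pair in which class II and interferon genes were high, the muscle sum was 137 and 1603 and the adipocyte sum 1546 and 1758, where the untreated tumors had adipocyte sums of 1128 to 1699. The part of these tissues, of the read depth and of ribosomal RNA in the other results was not tested.

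The combination was next set beside each single agent. Against chitin alone, limma called 0 genes (0%), with 229 (1.6%) higher and 211 (1.47%) lower at an unadjusted p under 0.05, and 328 and 253 in limma-voom, which also called 0. The smallest p-values belonged to Ppl, periplakin (-0.56), the deacylase Sirt7 (-0.22) and the muscle gene Myom3 (0.42), each with an adjusted p of 1. Of the 14 skeletal muscle genes, 9 were higher than with chitin alone at that level. Against anti-PD-1 alone, 0 genes were called (0%), with 546 (3.81%) higher and 642 (4.48%) lower, and 478 and 668 in limma-voom, which called 0. Without anti-PD-1 tumor 3, limma called 3. Here Fabp5 was the leading gene, at 457 ± 21.1 against 299 ± 54.8 normalized counts (SD, n = 5), with a difference of 0.48 (adjusted p = 0.102). Ppl and the clock gene Per2 followed, with differences of -0.67 and -0.85 (adjusted p = 0.194 for both). Clock genes were lower than with anti-PD-1 alone in 8 of 15 and glycolysis and hypoxia genes in 6 of 20 cases at an unadjusted p under 0.05.

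Set side by side against the same 5 untreated tumors, which all 3 treated groups share, the median of the glycolysis and hypoxia list was -0.40 with the combination, -0.24 with chitin and -0.10 with anti-PD-1. For Egln3, the differences were -1.02, -0.73 and -0.10. The MHC class II median was 0.56, 0.71 and 0.34, and the interferon gamma median 0.37, 0.44 and 0.25. The dendritic cell median was 0.23, 0.20 and 0.14, and that of macrophages 0.36, 0.30 and 0.13. For Gzmb, the differences were -0.69, -0.59 and -0.44.

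**Figure D5:**
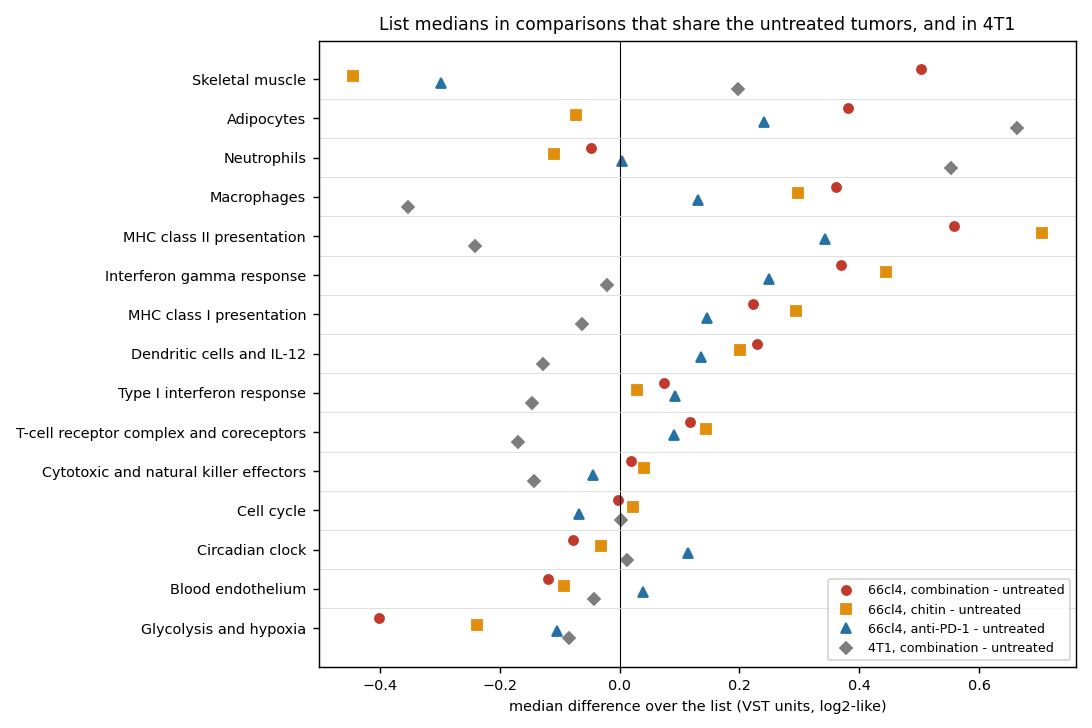
Median difference over 15 gene lists (horizontal axis, VST units) for 66cl4 tumors with the combination, chitin or anti-PD-1, each minus the same untreated tumors, and for 4T1 tumors with the combination minus untreated 4T1 tumors. Macrophage, MHC class II and dendritic cell medians are above 0 in the 3 66cl4 comparisons and below 0 in 4T1.

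The same treatment in tumors of the second cell line, 4T1, offered a test of the difference between models. limma called 0 genes for the difference between the 66cl4 and the 4T1 effect (0%), with 402 (2.81%) higher and 380 (2.65%) lower in 66cl4 at an unadjusted p under 0.05, and limma-voom called 0, with 370 and 304. The smallest p-values belonged to Msln, mesothelin, to Cyp4v3 and to Zfp113, all with an adjusted p of 0.332. In 66cl4, Msln had 2511, 1944, 1613, 1418 and 1788 normalized counts untreated and 1231, 1070, 1279, 1253 and 1371 with the combination, without overlap (-0.51), and in 4T1 it was at 213 ± 39.7 (SD, n = 4) and 591 ± 321 (SD, n = 5), a difference between the effects of -1.52. Of the 17 macrophage genes, 7 had a higher effect in 66cl4 at an unadjusted p under 0.05, and the list median was 0.36 in 66cl4 and -0.35 in 4T1. Of 11 MHC class II genes it was 6, with medians of 0.56 and -0.24. Of 15 neutrophil genes, 8 had a lower effect in 66cl4, with medians of -0.047, mostly over genes of few reads, and 0.55. For glycolysis and hypoxia genes it was 0 of 20 in either direction, with medians of -0.40 and -0.085.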

How the data were processed

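RNA of whole 66cl4 and 4T1 primary tumors was sequenced from stranded libraries. According to the study's methods, the authors aligned reads to mm10 with HISAT2, counted them per gene by strand with summarizeOverlaps, dropped genes that did not exceed 10 reads in 10% or more of the cases and applied the variance stabilizing transformation of DESeq2. Tool versions and the annotation are not given in the sources used here. The deposited values are on this log2-like scale. 1 untreated 4T1 tumor has no column and was not analysed here. Because the lowest value, 6.05144, stands for a count of 0, the transformation could be inverted, and 100% of values in every tumor gave whole reads within 0.001, in total 5105898 to 14800352 per tumor over all 39. Replicate tumors were separate libraries, since the variance between the 20 pairs checked was 3.02 to 22.6 times the counting error. Intervals were not computed for single tumors, and the depth sets how well genes of few reads are measured.

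Differences were tested in limma 3.58.1 (R 4.3.3) with a mean-variance trend, fitted over the 20 66cl4 tumors (39 tumors for the difference between models), with p-values adjusted by Benjamini and Hochberg over all 14318 genes. limma-voom on the recovered reads was an alternative, as were equal read depth, other normalizations, tumor weights, other fits and leaving out each tumor. Thinning to equal read depth used the lowest total. Genes could be named when among the 10 smallest p-values in each direction. With a mean of at least 50 normalized counts and an unadjusted p under 0.05, the 10 largest differences in each direction also qualified. So did members of the 35 gene lists, genes that the paper names and genes whose cytokine it measured. The 3 smallest p-values of another comparison gave further names. List members and the genes of the paper are named only in part. The members and lists were chosen with earlier results of these data known. The steps were tested on simulated data. Promoter windows came from RefSeq (GRCm38.p6), and 59 genes without a symbol were kept in all counts. Some items are not reported here.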

Additional observations from a re-analysis of the deposited data

Results flagged for a closer look

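Among the genes named above, each group of 5 tumors was searched for a tumor far from the other 4, by Dixon's ratio of its gap to the range (over 0.71). Of 288 groups searched, 16 had such a tumor, which is near the share of about 1 in 20 that chance gives. The tumors below are therefore listed as description only. Untreated tumor 4 stood above the others for Cxcl9 (135 normalized counts against 46.3 to 64.2), Iigp1 (309 against 136 to 170) and Btla (25.8 against 6.88 to 9.67), and below them for Ppl (386 against 557 to 625). Untreated tumor 5 was low for Gzmd (226 against 799 to 1256), Gzmf (186 against 752 to 1159) and Tnf (13.3 against 20.6 to 23.8). Untreated tumor 1 was low for C1qa (5698 against 8698 to 9293) and high for Aars (1707 against 1431 to 1456). Untreated tumor 3 was high for the muscle genes Myh2 (79.1 against 0 to 3.86) and Myom3 (12.3 against 2.29 to 2.67) and held the only read of Ifng among the untreated tumors (0.879 normalized counts against 0). In untreated tumor 2, Retn was at 4.59 against 1.25 to 1.76. In combination tumor 1, the adipocyte genes Lpl (649 against 59.5 to 102) and Retn (94.9 against 2.81 to 8.95) were high, and in combination tumor 4 Snai2 was low (84.4 against 115 to 125).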

How the results depend on the processing

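The count of 0 called genes between combination and untreated tumors was the same under every alternative but the following. Leaving out single tumors gave 0 to 3 calls, with 2 without untreated tumor 3 and 3 without untreated tumor 4. Without untreated tumor 3, a choice made after seeing the data, limma-voom called 2 and limma with tumor weights 62. With the tumor number as a replicate block, 7 genes were called, and 5 with a replicate block at equal read depth. Deviations of same-numbered untreated and combination tumors correlated from -0.34 to 0.26, and 0 untreated tumors correlated best with their own number. The chitin and anti-PD-1 tumors were not checked in this way, and whether the numbers pair the tumors was not settled. At an unadjusted p under 0.05, fitting both models together gave 203 higher and 234 lower genes, leaving out single tumors 492 to 1058 higher and 428 to 994 lower, and tumor weights without untreated tumor 3 gave 1231 lower. Against chitin, the fit of the compared groups alone called 1 gene. Against anti-PD-1, tumor weights called 2, the fit of both models 1, and leaving out single tumors 0 to 3. The difference between models had 0 calls throughout. The dendritic cell median, 0.23, became -0.0046 when the 25% of genes with the lowest means were left out, which left 3 of its 16 genes. The neutrophil median, -0.047, became 0.36 over the 4 of its 15 genes left in this way. The differences of all 144 genes named with a difference from the untreated tumors kept their direction in all 3564 alternative values. Many of these genes were named for a small p-value or a large difference in the same tumors, which the alternatives reuse. Few reversals could thus occur. The cause of the changes between alternatives was not tested, apart from the smaller number of genes or tumors that some alternatives leave. Genes under about 10 reads per tumor, Ifng and Chil3 among them, are limited by depth.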
